A study of Rattus norvegicus with 5 samples.

Results

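The circadian clock genes of rat lung are described here over 5 one-colour oligonucleotide arrays, 3 from lungs exposed to urban particulate matter and 2 from controls. Every probe set that the platform annotation assigns to Dbp, Tef, Hlf, Bmal1 (also written Arntl), Per2, Nr1d1, Nr1d2, Bhlhe40 or Bhlhe41 was taken, which gave 14 probe sets for 9 of the 4736 genes named on the array. The 9 genes were selected on earlier results from these same arrays, in which the Dbp level on the late array stood out, so their levels and differences are a description and carry no test.

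Each group was 1 array, hybridised with a pool of total lung RNA. The early, intermediate and late arrays held RNA from lungs instilled through the trachea with EHC-93, an urban dust preparation, and taken 2, 4 and 6 h, 15, 18 and 21 h, and 24, 32 and 40 h later. The sham pool combined lungs taken 2, 15 and 24 h after instilled saline, so each dust pool shares 1 time with it, and the untreated array held RNA from 3 rats given no instillation. The strain, sex and age of the rats, the number of rats in each instilled pool, and the clock time of instillation or killing are not stated in the labels. The 3 late times lie 8 h apart and are evenly spaced over a 24 h day, the early and intermediate times lie within one part of it, and the sham times correspond to 2, 15 and 0 h of a day counted from instillation. Time since dust, time of day and exposure therefore cannot be told apart on these arrays, and no difference between 2 arrays has a replicate check.

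The mammalian clock is a loop of transcription in which Bmal1, paired with Clock, switches on genes through E-box sequences. Among those genes are Per2, whose protein represses the pair, Bhlhe40 and Bhlhe41, which compete for the same E-boxes, the nuclear receptors Nr1d1 and Nr1d2 (Rev-erb alpha and beta), which repress Bmal1 through RORE sequences, and Dbp, Tef and Hlf, a family of PAR bZIP activators that bind D-boxes. In tissues of rodents, the lung included, Bmal1 RNA is known to peak at a time of day when Dbp, Nr1d1 and Per2 RNA are low.

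The sequence elements through which the loop is wired are shown for the members whose promoters hold one. RefSeq windows of the rat assembly GRCr8, from 250 bases before to 50 after each annotated start, were found for 8 of the 9 genes, with 9 windows in all since Nr1d1 has a second start. They were searched on both strands for the E-box CACGTG, the related E-prime box CACGTT, the D-box TTANGTAA and the RORE ANTAGGTCA. None of the matches shown overlaps another. Each line gives the gene, the motif, the position of the printed stretch, the gene's strand and the stretch in the gene's direction, with the match in capitals.
Bmal1 RORE, chr1:176766290-176766338, plus strand: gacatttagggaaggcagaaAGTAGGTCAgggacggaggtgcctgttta
Per2 D-box, chr9:99497158-99497205, minus strand: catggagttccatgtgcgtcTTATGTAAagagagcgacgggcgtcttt
Per2 E-prime box, chr9:99497030-99497075, minus strand: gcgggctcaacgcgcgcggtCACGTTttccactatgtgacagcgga
Nr1d1 E-prime box, chr10:84231961-84232006, minus strand: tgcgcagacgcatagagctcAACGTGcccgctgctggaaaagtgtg
Nr1d1 E-box, chr10:84229620-84229665, minus strand: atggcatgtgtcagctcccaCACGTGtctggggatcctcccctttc
Tef E-box, chr7:115206609-115206654, plus strand: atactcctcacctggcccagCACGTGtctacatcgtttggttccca
Bhlhe40 E-box, chr4:143174210-143174255, plus strand: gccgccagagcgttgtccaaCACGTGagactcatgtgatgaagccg
Bhlhe41 E-box, chr4:180569378-180569423, minus strand: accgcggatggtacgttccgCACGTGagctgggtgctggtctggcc

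The RORE of Bmal1 began 18 bases before the start, and 0.657% of the 33469 promoter windows of the table hold this motif. The D-box of Per2 began 192 bases before the start, and 2.24% of all windows hold one. The E-box was in 4 of the 9 member windows, those of Tef, Bhlhe40, Bhlhe41 and the second start of Nr1d1, against 6.42% of all windows. The E-prime box was in 2, those of Per2 and Nr1d1, against 4.83% of all. These are matches of letters and not measured binding sites.

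Dbp is the member on which the largest array difference rests, and its window is shown whole because it holds none of the 4 motifs, which says only that these letters are not in this stretch. It lies at chr1:105312006-105312305 on the plus strand of GRCr8.
Dbp promoter window: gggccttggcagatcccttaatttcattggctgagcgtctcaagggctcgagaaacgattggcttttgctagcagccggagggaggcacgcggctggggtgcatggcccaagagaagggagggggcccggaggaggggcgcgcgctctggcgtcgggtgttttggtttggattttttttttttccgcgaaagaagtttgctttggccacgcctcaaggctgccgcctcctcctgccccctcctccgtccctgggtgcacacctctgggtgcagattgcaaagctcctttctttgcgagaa

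Levels are given below as scaled intensity: the deposited linear intensity after all arrays were brought to the same median. Values under 173 (the floor, 172.53 before rounding, the 40th percentile of all scaled values) were set to it before differences were taken, so a fold against such a value is a lower bound. A gene with several probe sets is represented by the one with the highest mean, called its main probe set. Some array read above the floor for each of the 9 genes, and all 5 arrays did for 5 of them. A gene is called higher or lower on a dust array where it differed 2-fold or more, in the same direction, from the sham array and from the untreated array, a rule that was applied to the 3667 genes above the floor on some array.

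**Figure D1:**
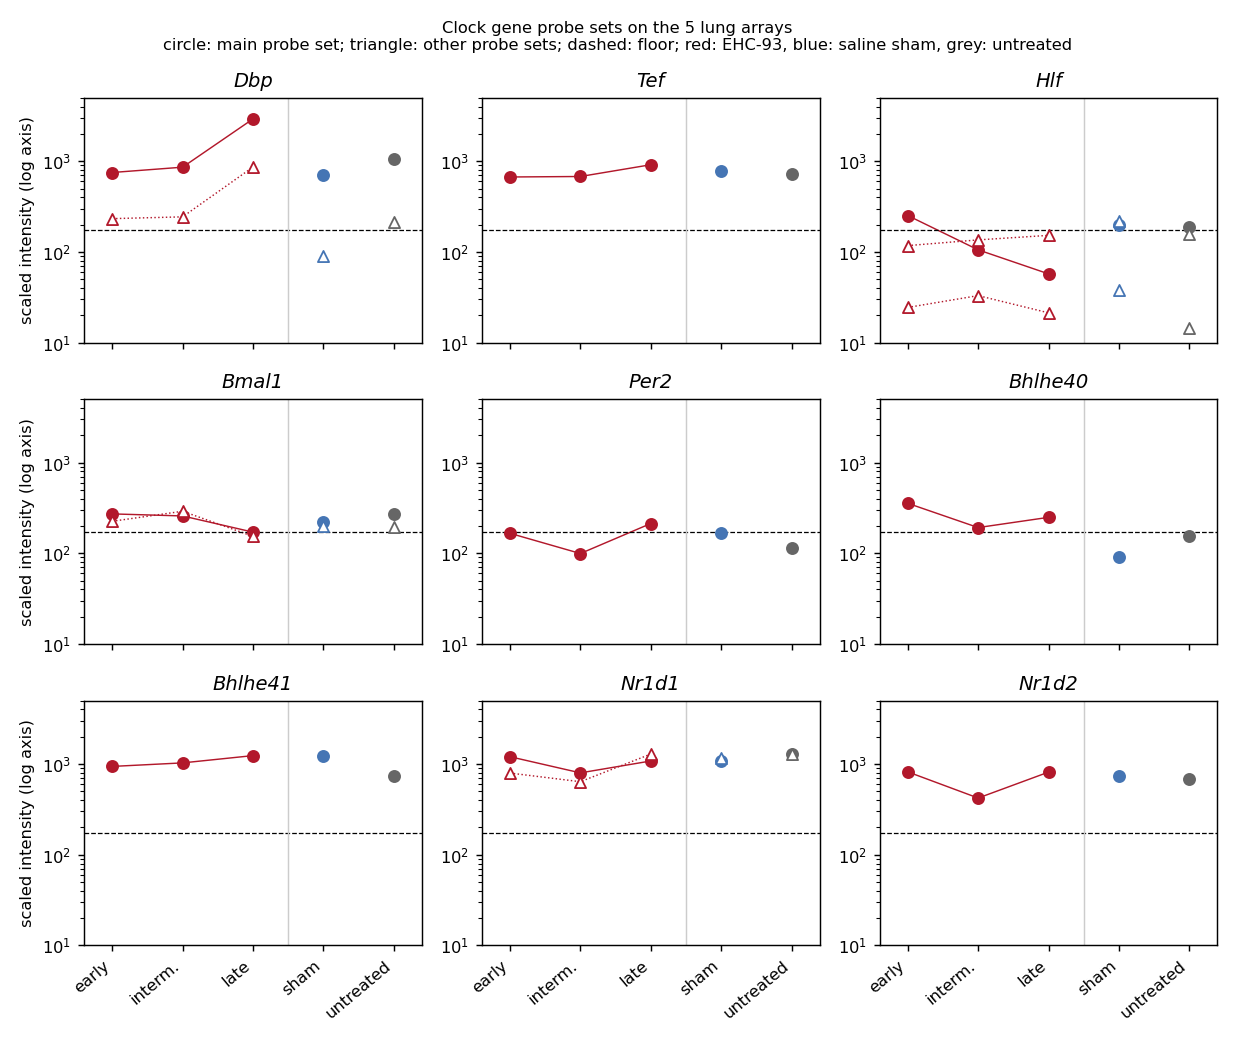
Scaled intensity (log axis) of the 14 clock gene probe sets on the early, intermediate and late EHC-93 arrays and the sham and untreated arrays, 1 array per group. Circles are main probe sets, triangles other probe sets, and the dashed line is the floor of 172.53; Dbp stands out on the late array by both of its probe sets, while Nr1d1 and Nr1d2 are lowest on the intermediate array.

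Dbp, named as the factor that binds the D site of the albumin promoter, was the clock gene that differed most. Its main probe set (J03179_g_at) read 752, 861 and 2933 in the early, intermediate and late dust pools, against 699 in the sham pool and 1051 in the untreated pool. The late array was thus the only one of the 5 above 1051. The late level exceeded sham 4.20-fold and untreated 2.79-fold, and it exceeded the early array 3.90-fold and the intermediate array 3.41-fold. The second Dbp probe set (J03179_at), designed on the same sequence and so not an independent measure, read 233, 244 and 864 on the dust arrays, against 91.2 in the sham pool, which is under the floor, and 216 in the untreated pool. By that probe set the late excess was 5.01-fold or more over sham and 3.99-fold over untreated. On the early and intermediate arrays the main probe set lay between the 2 controls, with log2 differences of 0.11 and 0.30 from sham and of -0.48 and -0.29 from untreated.

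Of the 9 members, Dbp was the 1 called higher on the late array and none was called lower. Over all genes 0.6% were higher and 1.04% lower there. By the smaller of its differences from the controls (log2, 1.48) Dbp took place 5 among the 22 genes called higher, after Ccl2, Mmp12, Orm1 and Nos2. Against both other dust arrays, without the controls, Dbp was again the 1 member at least 2-fold higher and none was lower, beside 0.109% and 1.23% of all genes. That 0.109% is 4 genes. Dbp led them with a smallest log2 difference of 1.77, followed by the carboxypeptidase Cpz, the embryonic globin Hbe2 and the kinase Fgr, which were named after their values were seen. Since the genes were selected with the late Dbp level known, these shares are given as its setting only.

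Of the markers of lung cells, the 4 measured alveolar type 2 genes read between 16835 and 71970 on every array. They summed to 135771, 180083 and 176683 in the early, intermediate and late dust pools. The sums were 148888 in the sham pool and 135666 in the untreated pool. Their median log2 difference from the averaged controls was -0.03, 0.42 and 0.36, beside -0.01, 0.09 and 0.07 over all genes. The 2 club cell genes parted: Scgb1a1 read 19739, 23021 and 25300 after dust, against 23792 and 25506, while Cyp2f4 read 842, 605 and 818, against 940 in the sham pool and 2643 in the untreated pool. The 3 endothelial genes summed to 3237, 2050 and 1987, against 2227 and 3044, and did not move together. Pecam1 ran from 432 (sham) to 1222 (early). Kdr read 1950, 1503 and 1271, against 1741 and 2219, so it lay between the controls on the early array and was lowest on the late array. Vwf was above the floor on the untreated array only. The 5 lymphoid genes summed to 2012, 1923 and 2111, against 1754 and 2557. Markers of other tissues and of inflammatory cells also differed between arrays. In bulk RNA fewer cells of a type and less RNA per cell cannot be told apart. The summed scaled intensity of 7 cardiac muscle genes was 20094, 37762 and 15095 in the early, intermediate and late dust pools, against 30063 in the sham pool and 53858 in the untreated pool, and all 7 were lowest on the late array, where Dbp was highest. That of 5 fat genes was 3897, 4516 and 3655, against 5982 and 8127. That of 4 macrophage genes was 3374, 3754 and 4923, against 1826 and 1817, with 3 of the 4 highest on the late array. That of 3 neutrophil genes was 5928, 5480 and 3617, against 2567 and 1977. Ryr2 of the cardiac, Plin1 of the fat and Cxcr2 of the neutrophil list were under the floor on every array. The part of these cell types in the clock gene levels was not tested.

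The other PAR bZIP genes did not show a difference of that size. Tef read 671, 680 and 916 in the early, intermediate and late dust pools, against 777 in the sham pool and 718 in the untreated pool. Its late value was the highest of the 5, at 1.18-fold of sham and 1.28-fold of untreated, inside the 2-fold rule. Hlf was dim, and its main probe set read 252, 105 and 57.3 in the same order after dust, the last 2 under the floor, against 196 in the sham and 189 in the untreated pool. A second Hlf probe set was above the floor on the sham array alone, at 217, and the remaining one was under it on every array. Both Hlf controls were so near the floor that no difference beyond 1.14-fold could have been seen for a lower call on the intermediate or the late array.

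Bmal1, the activator of the loop, was lowest on the late array by both of its probe sets, which were designed on different sequences. The main one (AB012600_s_at) read 272, 258 and 171 in the early, intermediate and late dust pools, against 222 in the sham pool and 270 in the untreated pool. The other (AF015953_at) read 226, 291 and 154, against 202 and 195. The late values were under the floor, so the main probe set was at least 1.29-fold below sham, at least 1.57-fold below untreated and at least 1.58-fold below early. All of these bounds lie inside 2-fold, and the controls were so near the floor that a 2-fold lower level could not have been read for this gene. The array with the highest Dbp was the array with the lowest Bmal1.

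The repressors of the Bmal1 and Clock pair each had 1 probe set. Per2 was above the floor on the late array only, at 213, against values of 166 and 99.5 on the early and intermediate arrays and 169 and 115 on the sham and untreated arrays, which lie under it. Its late level was thus at least 1.24-fold above each of the others. Bhlhe40 read 356, 192 and 249 in the early, intermediate and late dust pools, against 91.3 in the sham pool and 157 in the untreated pool, both under the floor. Early Bhlhe40 was at least 2.06-fold above both, the 1 member called higher on the early array, where none was lower; 2.54% of all genes were higher there and 0.3% lower. The call ended with 75th percentile scaling of the arrays (1.98-fold) or when the floor was set at the 60th percentile, which is above the early value. Bhlhe41, the close relative of Bhlhe40, read 942, 1030 and 1240 on the dust arrays, against 1219 in the sham pool and 732 in the untreated pool. For Bhlhe41 the untreated array was the low one: the late array differed 1.69-fold from it and 1.02-fold from sham.

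The nuclear receptors Nr1d1 and Nr1d2 shared a low reading on the intermediate array. Nr1d2 read 820, 422 and 815 in the early, intermediate and late dust pools, against 731 in the sham pool and 693 in the untreated pool. The intermediate value was the lowest of the 5, 1.73-fold below sham and 1.64-fold below untreated, and 1.94-fold below the early array. The main probe set of Nr1d1 (M25804_g_at) read 1205, 800 and 1081, against 1074 and 1283, with intermediate 1.34-fold below sham and 1.60-fold below untreated. The other Nr1d1 probe set (M25804_at) read 796, 639 and 1289, against 1165 and 1280, with intermediate 1.82-fold below sham and 2.00-fold below untreated. Both Nr1d1 probe sets come from the same sequence and put the intermediate array lowest, but they disagree on the early array, which was near the controls by the first and 1.46-fold and 1.61-fold below them by the second. No member was called higher or lower on the intermediate array, beside 0.873% and 0.218% of all genes.

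The intermediate array also had the lowest 5′ to 3′ signal ratio of the control transcripts, a measure of how complete the RNA and its copy are. For beta-actin it was 43.1%, 9.07% and 19.6% in the early, intermediate and late dust pools, against 14.7% in the sham pool and 24.4% in the untreated pool. For GAPDH it was 67.2%, 23.6% and 38.1%, against 25.4% and 39.1%. The part of RNA completeness in these readings was not tested.

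**Figure D2:**
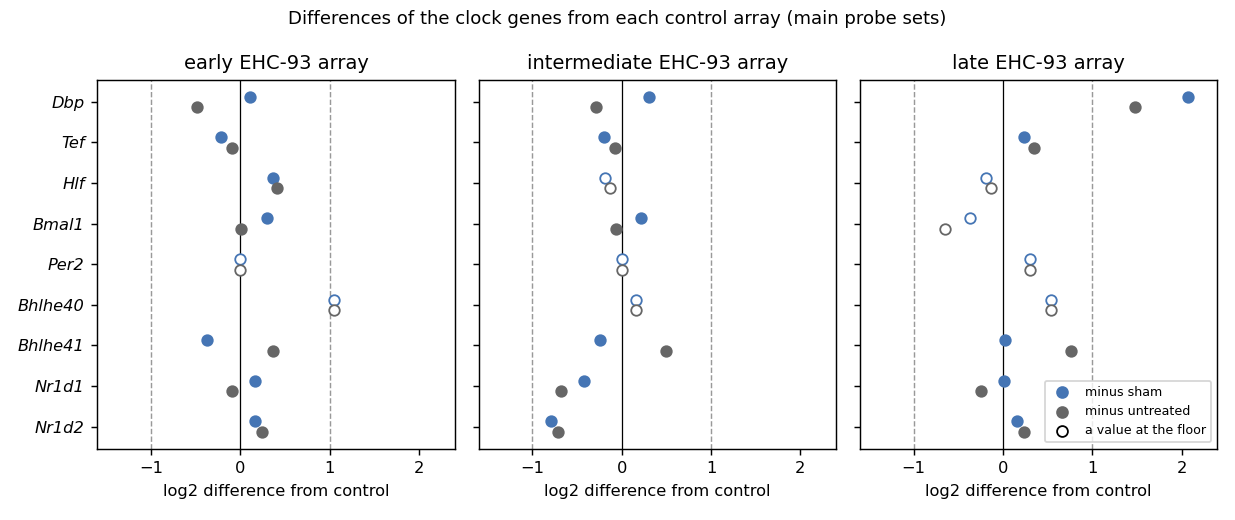
Log2 difference of each clock gene (main probe set) on the early, intermediate and late EHC-93 arrays from the sham array (blue) and the untreated array (grey). Open symbols involve a value at the floor, dashed lines mark 2-fold, and Dbp on the late array (2.07 and 1.48) and Bhlhe40 on the early array (1.05 for both) are the members beyond it.

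The sham array served as a second view of the clock genes without dust. Between sham and untreated no member differed by 2-fold in either direction, beside 1.55% of all genes higher and 1.61% lower in the sham pool. The widest member differences were those of Bhlhe41, higher on sham by 0.74 on the log2 scale, and Dbp, lower on sham by a log2 difference of -0.59. By the main Dbp probe set, the 2 controls differed by more than the early or the intermediate array differed from either of them. By the other one, whose sham value was under the floor, this did not hold. There the log2 differences from sham were at least 0.43 (early) and 0.50 (intermediate), and sham minus untreated was -0.33 or lower.

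As a list, the members had a median log2 difference, each dust array against the averaged controls, of 0.04 (early), 0 (intermediate) and 0.30 (late), against -0.01, 0.09 and 0.07 over all genes. On the late array 6 members were above the mean of the controls and 3 below. The share of all genes above that mean was not counted, and their median was itself above it. Per2 and Bhlhe40, among the 6, had both controls under the floor. By main probe sets, Bmal1, Hlf, Nr1d2 and Bhlhe40 had their highest value on the early array and Dbp, Tef, Per2 and Bhlhe41 on the late array, with Nr1d1 highest on the untreated array. By that choice no member was highest on the intermediate or the sham array, but the other Bmal1 probe set was highest on the intermediate array (291) and another Hlf probe set on the sham array (217). The main Bmal1 probe set read nearly the same on the early (272) and the untreated array (270). Over all genes the early array was highest for 20.6%, the intermediate for 27.4%, the late for 20.2%, the sham for 14.7% and the untreated for 17.1%.

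The highest and lowest arrays differed by at least 2-fold for 2 of the 9, Dbp and Bhlhe40, a share near the 18.4% of all genes that did so. The median of the members' ranges was 0.68 on the log2 scale, against 0.61 over all genes. Dbp, with a range of 2.07 (4.20-fold), was exceeded by 44 of the 3667 genes. Behind it stood Bhlhe40 at 1.05 or more, Nr1d2 at 0.96, Bhlhe41 at 0.76, Nr1d1 at 0.68, Bmal1 at 0.66 or more, Hlf at 0.55 or more, Tef at 0.45 and Per2 at 0.31 or more. The ranges marked as bounds rest on a value at the floor, so their order against the others is not settled.

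**Figure D3:**
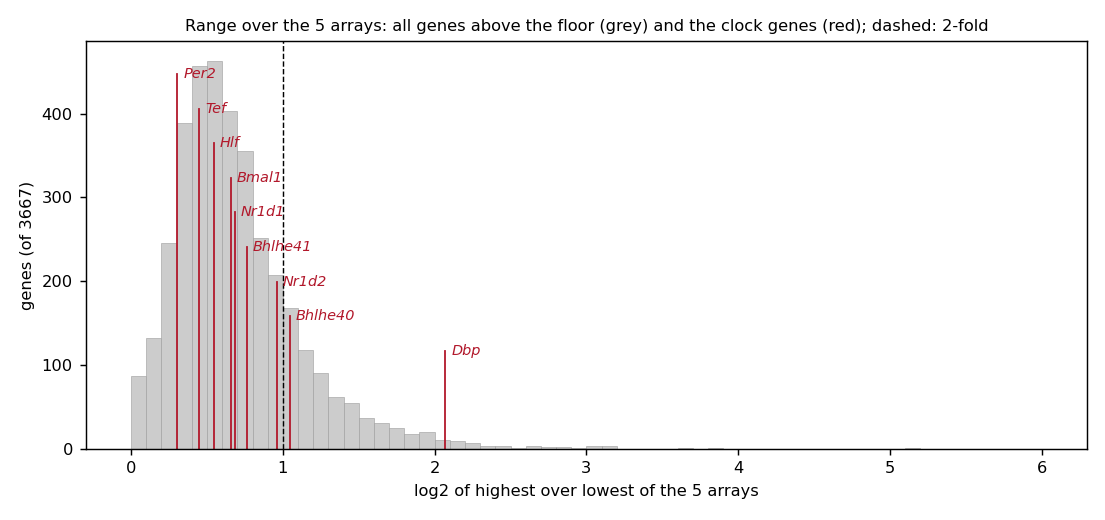
Number of genes by the log2 ratio of their highest to their lowest array, for the 3667 genes above the floor (grey bars), with each clock gene marked in red and 2-fold as the dashed line. Dbp at 2.07 lies in the upper tail, Bhlhe40 is marked at 1.05, just past 2-fold, and the other 7 are marked within the bulk of all genes. The marks of Bhlhe40, Bmal1, Hlf and Per2 are lower bounds, so their places are not settled.

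The genes whose pattern over the 5 arrays came nearest to Dbp were sought by the root mean square difference of log2 values after each gene was centred on its own mean, among the 2782 other genes above the floor on every array. The nearest were the cathepsin Ctsk (0.29), Spop (0.38), a substrate adaptor for ubiquitin ligases, the elastase Cela2a (0.39), the mitotic cyclin Ccnb1 (0.41) and the lung transcription factor Nkx2-1 (0.43), against a median of 0.75 over all of those genes. Ctsk read 255, 393 and 709 in the early, intermediate and late dust pools, against 216 in the sham pool and 333 in the untreated pool, a smaller late excess than that of Dbp. No other clock gene was among the 5, but Bmal1, Per2, Hlf and Bhlhe40 could not be. They were not above the floor on every array and so were not compared.

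For Bmal1, which is itself at the floor on the late array, the 3666 other genes above the floor on any array were compared. The deacetylase Sirt2 (0.05), Mmadhc (0.06), a cobalamin trafficking gene, Setsip (0.07), C17h5orf24 (0.07) and Stmp1 (0.07) were nearest, and 8 genes lay within 0.1. Sirt2 read 2266, 2190 and 1589 on the dust arrays, against 1979 and 2406 on the controls. A flat gene would lie 0.25 from Bmal1, so nearness here is to a shallow pattern.

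**Figure D4:**
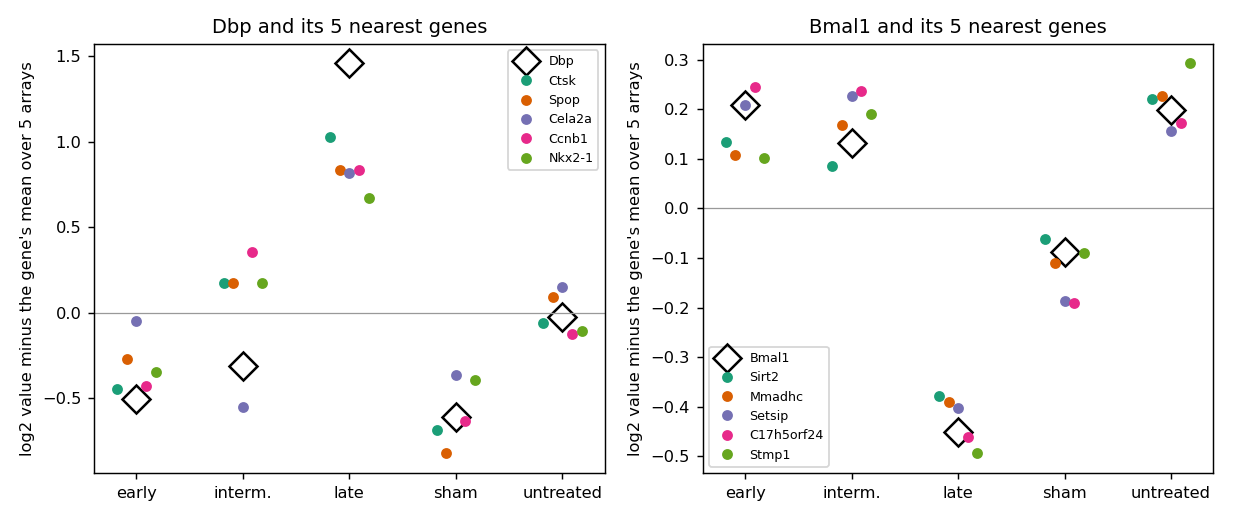
Log2 values on the early, intermediate, late, sham and untreated arrays, each minus the gene's mean over the 5, for Dbp (left) and Bmal1 (right) as open diamonds and the 5 nearest genes of each as coloured points. The genes nearest to Dbp share its high late value with a smaller excess, and those nearest to Bmal1 follow it within 0.07 on average (root mean square) on a narrow axis.

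Other parts of the clock could be read for few genes. Of 24 listed further clock genes, 9 were named on the array and 6 were above the floor. They were the casein kinases Csnk1d and Csnk1a1, the subunits Csnk2a1 and Csnk2b of casein kinase 2, the kinase Gsk3b and Prkaa1. The casein kinases, casein kinase 2 included, and Gsk3b phosphorylate clock proteins, and Prkaa1 is a subunit of the energy sensor AMPK. Clock, Per1, Per3, Cry1, Cry2 and Nfil3 were not analysed here. On the late array 1 of the 6 was lower and none higher, beside 1.04% and 0.6% of all genes. That gene, Csnk2a1, read 1275, 1901 and 388 in the early, intermediate and late dust pools, against 1005 in the sham pool and 1318 in the untreated pool, log2 differences of -1.37 and -1.76. Its second probe set, made from a different sequence, did not show this, at 375, 307 and 340 on the dust arrays, against 265 and 352, and its remaining one, at 180, 67.8 and 157, against 132 and 238, was above the floor on 2 arrays only. Gsk3b read 295, 759 and 599, against 588 and 567, so its early value was low without passing, and its dim second probe set, at 229, 208 and 160 against 148 and 165, did not show this either. By its main probe set Csnk1d read 1846, 1126 and 1482, against 1601 and 901, and its other probe set had a different pattern, at 799, 802 and 622, against 592 and 706. Csnk1a1 read 1975, 1293 and 1391, against 1476 and 1319. Csnk2b was bright and narrow in range, at 3024, 2929 and 3131, against 2428 and 2684. Prkaa1 passed the floor on the late array alone, at 179. None of the 6 passed on the early or the intermediate array, and their median log2 differences were 0.20, 0.10 and 0.05 in the early, intermediate and late dust pools.

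Among 6 measured clock output genes and 5 measured targets of the PAR bZIP factors, known as targets from liver and kidney of mice and rats, none passed on any dust array. Of all genes 2.54%, 0.873% and 0.6% were higher on the early, intermediate and late arrays, and 0.3%, 0.218% and 1.04% lower. With shares this small, no call in lists of this length says little about these genes. The targets with the highest levels were the cytochrome Cyp2b2, the cytochrome reductase Por and Alas1, the first enzyme of heme synthesis. Por read 2729, 3135 and 3582 on the dust arrays, against 3170 in the sham pool and 3087 in the untreated pool. Alas1 read 2294, 1211 and 2106, against 1291 and 1752, late being 1.63-fold above sham and 1.20-fold above untreated. On the late array the main probe sets of these targets lay within 1.63-fold of both controls. Dbp was 2.79-fold or more above both controls there. Whether the Dbp level bears on these genes was not tested. Of the outputs, the lipase Lpl read 3738 to 4535 on the dust arrays, against 4241 and 4041. The angiogenic factor Vegfa read 3517, 1589 and 1966, against 1962 and 2810, and the peptide hormone precursor Avp 675 to 825, against 874 and 726. Cyp2b2, Por, Alas1, Lpl, Vegfa and Avp all have further probe sets, whose readings are not given here.

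Glucocorticoids reset peripheral clocks, and genes that respond to them were read beside the members. Of 8 measured, 2 were higher on the early array, the transcription factor Cebpd and the NF-kB inhibitor Nfkbia, both of which also respond to inflammation, and none on the intermediate or the late array, beside the 2.54%, 0.873% and 0.6% of all genes that were higher there. Nfkbia read 7182 on the early array, against 3279 in the sham pool and 2552 in the untreated pool. The median log2 difference of the 8 from the averaged controls was 0.51 early, 0.26 at the intermediate times and 0.22 late, beside -0.01, 0.09 and 0.07 over all genes. The sham pool itself lay above the untreated pool by a median of 0.29 over the 8, beside -0.04 over all genes. Differences of the 8 from the averaged controls therefore do not separate dust from instillation. Cebpd read 5250 early, against 2030 in the sham pool and 965 in the untreated pool, and was also at least 2-fold higher in the sham than in the untreated pool. Both early calls rest on main probe sets. Cebpd has 2 further probe sets and Nfkbia 1, whose readings are not given here.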

How the data were processed

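The deposited values are linear intensities of 8799 probe sets on 5 arrays. That the authors scaled the arrays to each other is read from the values, whose 2% trimmed means fell in the narrow span 1001.38 to 1001.63. Which algorithm and software made them is not given in the sources used. After 59 control probe sets were left out, 8740 remained. The platform annotation gave 1 gene symbol for 7006, several for 308 and none for 1426, and only the first kind was named. The RefSeq gene table of GRCr8 held 6985 of those 7006 and changed no symbol.

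Intensities were multiplied to a common median (factors from 0.931 for sham to 1.07 for intermediate), floored at the 40th percentile (172.53) and taken to log2 in Python 3.11.15 with pandas 2.3.3. A gene was represented by its brightest probe set. With 1 array per group there is no error or p-value, and the number of arrays limits the precision. The fold rule and motif search were tested on simulated data. The members and gene lists were chosen with earlier results of these data known. Named genes were all members, the 5 nearest to Dbp and Bmal1, all further clock genes above the floor, and of each other list up to 5 passing 2-fold or else the 3 brightest. Alternatives covered scaling, floor, probe set choice, fold threshold and control array.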

Additional observations from a re-analysis of the deposited data

How the results depend on the processing

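The late Dbp call, and its call against both other dust arrays, were the same under every alternative run: deposited values, 75th percentile scaling, quantile normalization, floors at the 20th and 60th percentile, the mean of all probe sets, a 1.5-fold threshold and, for the first, each control array alone. Averaged over the controls, its late log2 difference was 1.78, and it ran from 1.48 (untreated alone) to 2.07 (sham alone). The Bhlhe40 call on the early array did not hold: the count of higher members there was 0 with 75th percentile scaling and 0 with the floor at the 60th percentile. That higher floor left 1 member with a 2-fold range and put all Bmal1 values at the floor, so that its late difference of -0.51 became 0. With 75th percentile scaling the members with a 2-fold range were Dbp and Nr1d2 in place of Dbp and Bhlhe40. They were Dbp, Nr1d2 and Bhlhe40 with deposited values, and Dbp, Per2 and Bhlhe40 with the floor at the 20th percentile. At the 1.5-fold threshold, 6 members had a range of 1.5-fold or more, where the median range over all genes was 1.53-fold. By the same threshold 1 member (Nr1d2) was lower on the intermediate array. On sham against untreated 1 was higher (Bhlhe41) and 1 lower (Dbp). The shares of all genes past 1.5-fold were not counted, so these member counts have no background. Of 89 recomputed counts 82 stayed within 1.5 times, but many of these were counts of 0 that stayed 0, for which that limit says little. The 48 recomputed differences were those of Dbp and Bmal1 only, and the other members were not covered by them. Of the 48, 47 moved by less than 0.41, the SD of the log2 sham minus untreated difference over all genes, used because no group has replicates. Over 4 scalings the median of all genes on the intermediate array ran from -0.04 to 0.09 (log2), and 4 of 27 member differences turned sign: Nr1d1 on the early array and Dbp, Bmal1 and Bhlhe41 on the intermediate array, none above 0.16 in size. No paired analysis was possible because each group is 1 array. Values near the floor limit Per2, Hlf, Bmal1 and Bhlhe40.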
